A study of Mus musculus with 4 samples.

Results

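Hlf, Mecom, Mllt3, Mycn, Tcf15, Erg and Fli1 are genes of transcription and chromatin factors known from haematopoietic stem cells. They were taken by symbol from the gene tables, and all 7 were found among 32285 genes. They were described in 4 single-cell libraries of mouse bone marrow cells that carried CD45.2 and Kit on the surface, taken 10 weeks after a transplantation. One library came from control cells, one from cells with Mll3 deleted, one from cells with Mll4 deleted and one from cells with both deleted (Mll3/4). Mll3 and Mll4 are histone methyltransferases encoded by Kmt2c and Kmt2d. The labels give no alleles, Cre driver, host or number of animals, so each group is 1 library and no difference below has a replicate check or a test. RNA was counted as unique molecular identifiers (UMIs) with the 10x 3′ chemistry, beside 13 surface antibodies and 2 hashtags.

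Stem cell identity rests on a small set of DNA-binding factors that act together at shared regulatory elements. Hlf is a PAR bZIP factor and Mecom a zinc finger factor, and both mark long-term stem cells in mouse marrow. Erg and Fli1 are ETS factors that belong, with Gata2, Runx1, Tal1, Lyl1 and Lmo2, to the group called the heptad. Fli1 is also a regulator of megakaryocytes and Erg of early B-cell development. Mllt3 (AF9) is a YEATS-domain reader of acylated histones, Mycn a Myc family factor and Tcf15 a basic helix-loop-helix factor of quiescent stem cells.

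The libraries held 7146 (control), 5860 (Mll3-labelled), 5350 (Mll4-labelled) and 6917 (Mll3/4-labelled) cells after filtering, with median depths of 15754, 16963.5, 5142 and 9965 UMIs per cell. Any pair of libraries shared between 3 and 15 kept barcodes. As a check of the labels, Kmt2c stood at 47.9, 27.2, 59.2 and 34.8 CPM in that order, where CPM is the number of UMIs per 1000000 gene UMIs, and Kmt2d at 25.8, 21.6, 24.99 and 24.7 CPM. Kmt2d was thus as high in the library labelled Mll4-deleted as in the others. But 3′ tags outside a deleted stretch check nothing, so libraries are named here by their labels. Xist was at 989.9, 955, 0.519 and 1839 CPM, so the Mll4-labelled library stood apart in Xist. In that library the sex of the cells and the deletion cannot be told apart, which touches each of its calls below (Tcf15, Mecom and Mycn). Cells were grouped into classes by clustering with the 7 genes left out, so no class was defined by them. Cells of the HSC/MPP-like class (stem cells and multipotent progenitors) made up 16.2%, 13.2%, 7.50% and 0.130% of the libraries, and B-cell progenitor-like cells 6.86%, 8.79%, 2.75% and 98.8%. Endothelial cells, which also use several of these factors, were sought by 8 markers. Their summed level was 2.87 to 3.82 CPM over the 4 libraries, Ptprb was at 0 in each and Cdh5 had at most 3 counts.

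Hlf, Mecom and Mycn stood far below control in the Mll3/4-labelled library, and their promoters are shown here because they share that pattern while their sequences differ. RefSeq promoters (GRCm38.p6) were found for 5 of the 7 genes. Each line gives the 250 bases before an annotated start on the minus strand, 5′ to 3′. Capitals mark matches, on either strand, to 6 motifs. The ETS motif was searched as CGGAAG and the GATA motif as AGATAA. The RUNX motif was searched as TGTGGT, the E-box as CACGTG and the CCAAT box by the letters of its name. The cAMP response element was searched as TGACGTCA. The RefSeq table held a pair of Mecom starts, shown as upstream and downstream. A 3′ count does not tell transcripts from different starts apart.
Hlf, chr11:90390918-90391167: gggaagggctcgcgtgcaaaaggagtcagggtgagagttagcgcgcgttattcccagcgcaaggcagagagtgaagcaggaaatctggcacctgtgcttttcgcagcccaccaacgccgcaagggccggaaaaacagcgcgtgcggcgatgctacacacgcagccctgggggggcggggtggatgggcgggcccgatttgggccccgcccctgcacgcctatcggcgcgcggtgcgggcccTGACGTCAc
Mycn, chr12:12941837-12942086: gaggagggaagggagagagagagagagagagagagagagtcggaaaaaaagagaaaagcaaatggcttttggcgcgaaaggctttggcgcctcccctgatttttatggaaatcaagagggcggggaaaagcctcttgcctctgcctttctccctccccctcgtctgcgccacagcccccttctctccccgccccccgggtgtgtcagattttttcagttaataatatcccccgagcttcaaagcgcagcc
Mecom upstream start, chr3:30509760-30510009: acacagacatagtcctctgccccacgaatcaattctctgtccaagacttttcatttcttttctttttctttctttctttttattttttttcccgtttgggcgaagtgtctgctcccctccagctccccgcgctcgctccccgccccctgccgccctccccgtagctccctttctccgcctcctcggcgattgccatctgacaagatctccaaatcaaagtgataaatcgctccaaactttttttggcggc
Mecom downstream start, chr3:30013205-30013454: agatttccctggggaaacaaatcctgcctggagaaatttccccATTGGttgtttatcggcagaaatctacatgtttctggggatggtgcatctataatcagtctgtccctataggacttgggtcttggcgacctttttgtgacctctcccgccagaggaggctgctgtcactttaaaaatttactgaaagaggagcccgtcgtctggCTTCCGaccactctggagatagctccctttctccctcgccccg
The Hlf promoter held the palindrome TGACGTCA 9 bases before the start, which 1.55% of 32851 promoters of the same length held on either strand. It held 26 CG pairs, more than 90.4% of promoters, against a median of 6. The downstream Mecom start had CGGAAG on the other strand 43 bases before it (found in 13.6% of promoters) and CCAAT on the other strand 207 bases before it (33.8%). Neither the Mycn promoter nor the upstream Mecom start held any of the 6 motifs. A match is a string of letters and says nothing of binding. In GRCm38 with GENCODE M21, the protein-coding genes lie at chr11:90336536-90390895 (Hlf), chr3:29951296-30548008 (Mecom), chr4:87769925-88033364 (Mllt3), chr12:12936093-12941914 (Mycn), chr2:152143561-152149097 (Tcf15, plus strand), chr16:95359169-95586593 (Erg) and chr9:32422204-32542861 (Fli1). All but Tcf15 lie on the minus strand.

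In control marrow the 7 genes fell into different patterns over 11 cell classes. Hlf, the bZIP factor, was at 199.98 CPM in HSC/MPP-like cells and at 144 CPM in an unnamed cluster led by Cd34 and Adgrl4. It was at 35.9 CPM in megakaryocyte-like cells and between 2.81 and 25.9 CPM in every other class. Mecom followed the same order at the top, with 54.9, 39.0 and 22.8 CPM in these 3 classes and at most 4.05 CPM elsewhere. Mycn and Tcf15 were instead highest in megakaryocyte-like cells, at 66.0 and 20.6 CPM, against 23.5 and 10.5 CPM in HSC/MPP-like cells. Fli1 was also highest there, at 232 CPM, and was below 10 CPM only in erythroid progenitor-like cells (8.13 CPM).

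Mllt3 and Erg were not highest in the stem cell class. Mllt3, the histone reader, was at 79.9 CPM in 50 T/NK/innate lymphoid-like cells, at 51.5 CPM in erythroid progenitor-like cells and at 35.5 CPM in HSC/MPP-like cells. The first of these classes held 0.196% of control gene UMIs and the second 40.8%, so the first value rests on far fewer counts. Erg was at 147 CPM in B-cell progenitor-like cells, against 77.1 CPM in the Cd34 and Adgrl4 cluster and 72.5 CPM in HSC/MPP-like cells. Those last 2 values lie close together, as do the Fli1 levels of the same pair of classes (70.1 and 69.7 CPM). Tcf15 had no UMI in 490 control B-cell progenitor-like cells, a floor of 3 counts being 0.925 CPM.

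**Figure D1:**
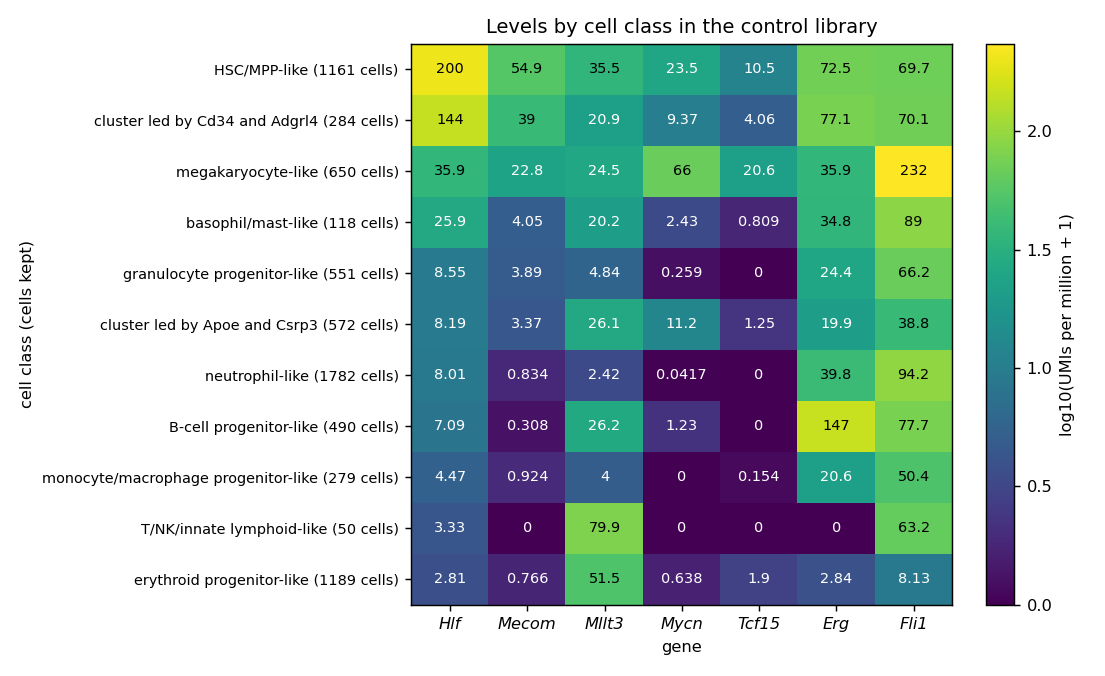
Level of each gene (columns) in each cell class with at least 50 cells (rows) of the control library, in CPM; colour is log10 of that value plus 1. Hlf and Mecom are highest in HSC/MPP-like cells, Mycn, Tcf15 and Fli1 in megakaryocyte-like cells, and Erg in B-cell progenitor-like cells. Mllt3 is highest in T/NK/innate lymphoid-like cells, a value from only 50 cells.

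The likeness of 2 genes was measured as Pearson r of log2(CPM + 1) over the 11 control classes, which share 1 library. Hlf and Mecom had r = 0.946 and Mycn and Tcf15 r = 0.918, while Mllt3 and Erg had r = -0.397. Among 12112 genes, those most like Hlf were Zfp532 (0.977), Slc16a9 (0.975) and Bgn (0.969). Mecom was nearest to Sorbs3 (0.968), Mllt3 to Serpinb6b (0.959), Erg to Rab11fip5 (0.960) and Fli1 to Krcc1 (0.924). Gm16140 was among the 3 nearest genes of both Mycn (0.960) and Tcf15 (0.956).

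Cells were thinned to 2000 UMIs, since depth differed between libraries, and few of the 7 transcripts were found at once in a thinned cell. Genes per cell were not counted at full depth. A Hlf UMI was then found in 32.2% of control HSC/MPP-like cells (95% exact binomial interval 29.5 to 35.0, counting error only), against 73.8% before thinning at a median of 12618 UMIs. In neutrophil-like cells, a class that should hold little Hlf, the share was 1.37% (median 13536.5 UMIs). The HSC/MPP-like shares were 10.6% for Mecom, 7.25% for Mllt3, 4.31% for Mycn and 2.93% for Tcf15, each above the neutrophil-like share (at most 0.400%). Erg was in 14.6% and Fli1 in 15.2% of them, against 7.99% and 17.7% of neutrophil-like cells. The Fli1 share therefore did not set the stem cell class apart. No thinned HSC/MPP-like cell of the control held more than 5 of the 7 genes, 6.38% held 3 or more, and 42.9% held none. Mllt3 was found in 13.4% of the 373 cells with a Hlf UMI and in 4.33% of the 786 without.

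The surface antibodies, which played no part in choosing the genes or the classes, separated cells with and without these transcripts. Among control HSC/MPP-like cells, 75.3% of those with a Hlf UMI were positive for Sca-1 against 41.9% of those without. For CD150, carried by long-term stem cells, the shares were 35.9% and 16.9%, and for CD48, gained on progenitors, 53.1% and 81.2%. The same directions were seen in the Mll3-labelled library (Sca-1 79.5% and 53.6%, CD48 35.0% and 62.3%) and in the Mll4-labelled library (64.2% and 33.9%, 41.3% and 68.9%). Cells with a Hlf UMI were not deeper before thinning, with a median of 11274 UMIs against 13622.5 in the control.

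Mecom, Mllt3 and Mycn split the control cells in the same direction. CD150 was positive on 42.3% of cells with a Mecom UMI and 20.8% of those without, on 53.6% and 20.7% for Mllt3, and on 60% and 21.4% for Mycn, the last from 50 cells with a UMI. CD41, a megakaryocyte and stem cell integrin, was positive on 92% of the 50 cells with Mycn and 63.1% of the rest. Erg separated the cells less, with CD48 on 64.5% and 73.4% in the control. In the Mll4-labelled library CD48 was on 61.3% of cells with an Erg UMI and 61.2% of cells without.

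**Figure D2:**
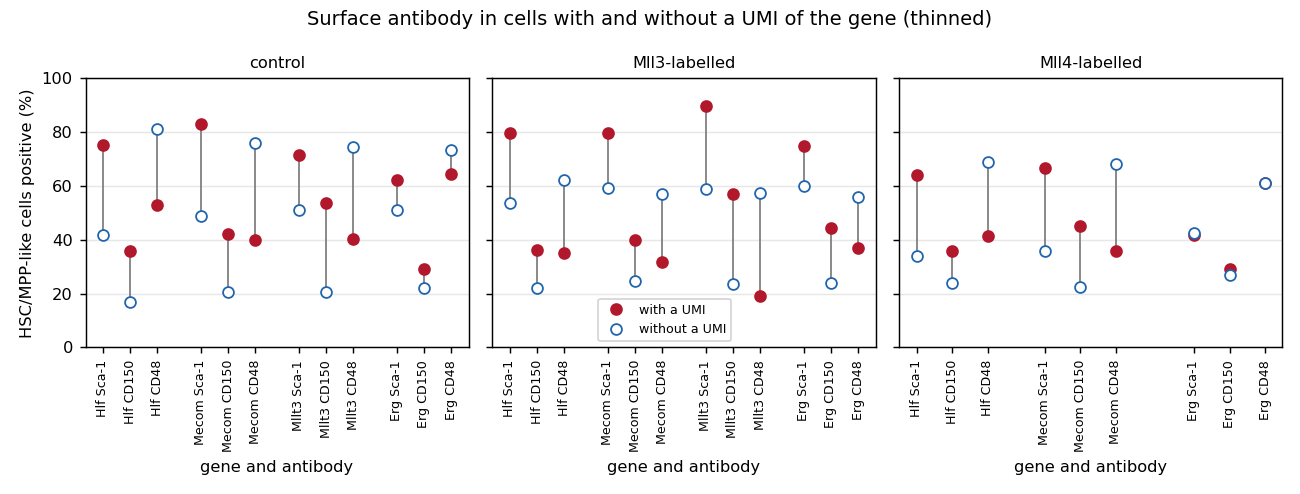
Share of HSC/MPP-like cells positive for Sca-1, CD150 or CD48 (vertical axis, percent) among cells with a UMI of the gene (filled points) and without one (open points), after thinning, in 3 libraries, for Hlf, Mecom, Mllt3 and Erg where at least 50 cells had a UMI. For Hlf and Mecom, Sca-1 and CD150 are higher and CD48 lower in cells with a UMI in each of the 3 libraries.

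Gates set on the antibodies alone gave a finer view of the stem cell compartment. In CD117+ Sca-1+ control cells, Mllt3, Mycn, Tcf15 and Fli1 were highest in the CD150+ CD48- gate that is used for long-term stem cells (99.4, 77.7, 41.1 and 128 CPM in 240 cells). Hlf, Mecom and Erg were highest in CD150- CD48- cells (463, 121 and 107 CPM in 95 cells), although the intervals of those 2 gates overlapped for Mecom (upper bound 117 CPM in the first and lower bound 101 CPM in the second) and for Erg (95.2 and 87.8 CPM). The Fli1 intervals of the CD150+ CD48- and CD150+ CD48+ gates overlapped too, and with antibody thresholds 1.5 times as high the order of these Fli1 values turned (117 and 127 CPM). CD150- CD48+ cells had 228 CPM of Hlf, 20.3 CPM of Mllt3 and 14.9 CPM of Mycn. Cells that were CD117+ but Sca-1- had 16.5 CPM of Hlf. Of the CD150+ CD48- cells, 70.0% were HSC/MPP-like and 22.9% megakaryocyte-like, while no CD150- CD48- cell was megakaryocyte-like. In CD150+ CD48+ cells, 24.0% of which were megakaryocyte-like, Mycn was at 27.8, Tcf15 at 14.98 and Fli1 at 108 CPM. The part of that class in the gate values was not tested.

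**Figure D3:**
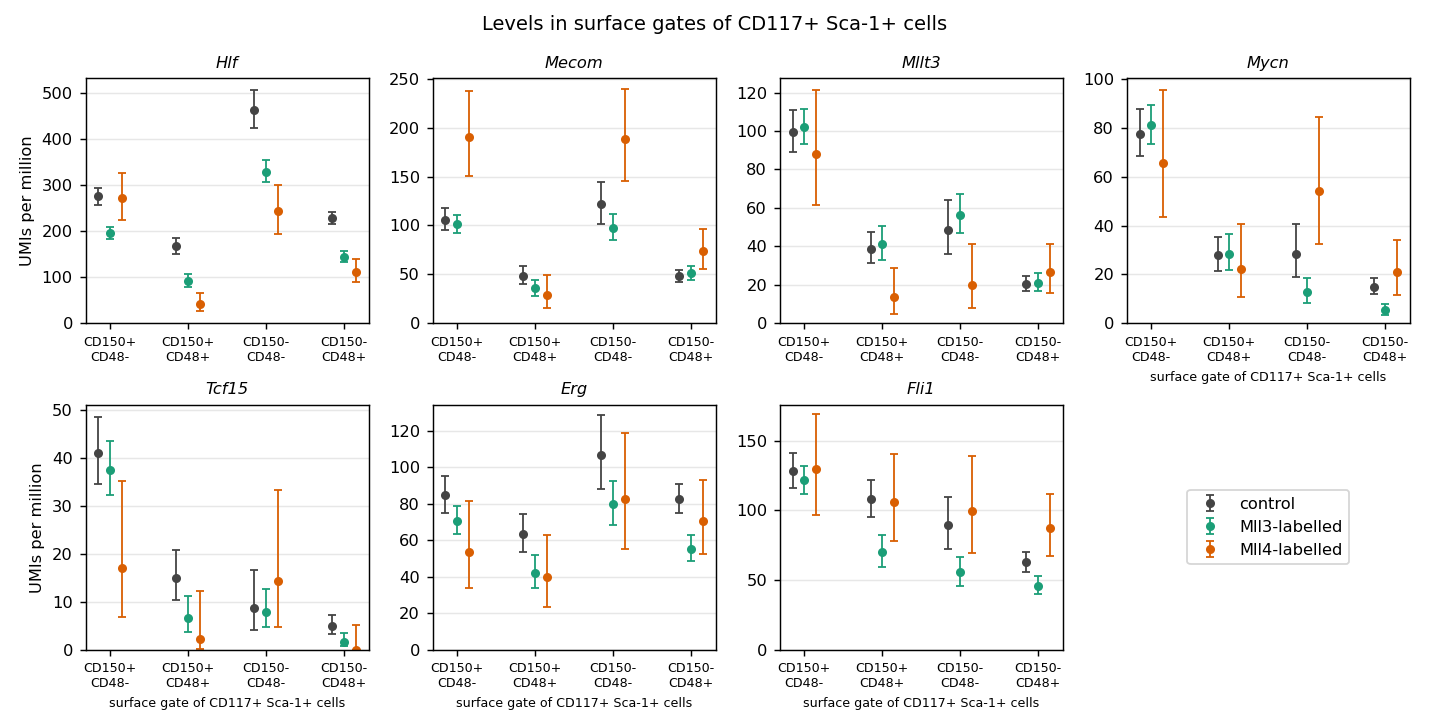
Level of each gene (CPM, linear axis from 0, with 95% Poisson intervals) in 4 surface gates of CD117+ Sca-1+ cells, in the control, Mll3-labelled and Mll4-labelled libraries. Mecom of the Mll4-labelled library lies above control in 3 of 4 gates. Hlf lies below control in all 4 gates in the Mll3-labelled and the Mll4-labelled library. In CD150+ CD48- cells the Mll4-labelled value is close to control.

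The Mll3-labelled library was compared with the control first. Over all cells Hlf was at 27.6 CPM against 33.1 in control, and Erg at 21.6 against 28.1 CPM. Mecom was at 12.3 against 9.96 CPM, Mllt3 at 33.0 against 30.9, Mycn at 9.24 against 8.91, Tcf15 at 3.18 against 3.68, and Fli1 at 47.4 against 58.0 CPM. A gene was called where its CPM differed at least 2-fold and both libraries held at least 20 counts. A gene with 0 counts in one library was called where a bound from a floor of 3 counts there passed 2-fold. By this rule 0 of 7 genes were called in either direction, beside 0.199% higher and 0.467% lower of 14550 genes. That background takes genes with at least 20 counts in either library and adds 1 CPM to both values. The median log2 ratio of the 7 genes was -0.21, against -0.039 over all genes.

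Within HSC/MPP-like cells, the stem cell class, the Mll3-labelled library again had 0 of 7 genes past 2-fold (background 0.412% higher, 0.679% lower). Mllt3 was furthest from control, at 52.9 against 35.5 CPM, a log2 ratio of 0.58 (0.40 to 0.75). The 2 hashtags differed: with hashtag 2 Mllt3 was at 73.9 CPM against 33.1 in control, and with hashtag 1 at 38.8 against 38.3 CPM. The labels do not say what the hashtags mark. Mecom had a log2 ratio of 0.41 (0.26 to 0.55) in this class and 0.58 (0.36 to 0.81) in megakaryocyte-like cells, where it was at 34.1 against 22.8 CPM. None of the 7 genes passed 2-fold in those cells (background 0.432% higher, 1.18% lower).

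Hlf and Mycn gave different readings by class and by surface gate in the Mll3-labelled library. In the HSC/MPP-like class the Hlf log2 ratio was 0.07 (-0.01 to 0.15), at 210.0 against 199.98 CPM. In the gates it was at 195 against 275 CPM (CD150+ CD48-), 91.4 against 166 (CD150+ CD48+), 329 against 463 (CD150- CD48-) and 144 against 228 CPM (CD150- CD48+), with no overlap of intervals in any gate. The HSC/MPP-like class supplied a smaller share of each gate than in control, for example 54.5% against 70.0% of CD150+ CD48- cells. The library also had more CD150- CD48- cells (167 against 95), the gate with the highest Hlf, and the part of either in the readings was not tested.

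In erythroid progenitor-like cells, where 6 of the genes are low, Hlf was at 1.48 CPM with the Mll3 label against 2.81 in control, a log2 ratio of -0.92 (-1.30 to -0.55). Tcf15 had -0.93 (-1.40 to -0.48) and Fli1 -0.69 (-0.89 to -0.48) in the same class. These did not reach 2-fold, so 0 of 7 genes were called (background 0.21% higher, 0.563% lower). Mllt3, the gene abundant in this class, showed 51.5 CPM (control), 47.9 CPM (Mll3-labelled) and 52.7 CPM (Mll4-labelled). In granulocyte progenitor-like cells 5 genes could be compared in the Mll3-labelled library and 0 were called (background 0.35% higher, 0.7% lower).

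The Mll4-labelled library had 1 of 7 genes called lower and 0 higher over all cells, where 2.91% of 14452 genes were lower and 5.74% higher. The gene was Tcf15, the quiescence factor, with 33 counts against 565, or 1.01 against 3.68 CPM, a log2 ratio of -1.87 (-2.42 to -1.36). Hlf was at 21.3 CPM (log2 ratio -0.63) and Mllt3 at 18.3 CPM (-0.76), while Mecom was at 12.997 and Mycn at 12.97 CPM (0.38 and 0.54). Fli1 was at 90.9 CPM (0.65). Erg was at 37.1 CPM (0.40), but its ratio turned to -0.29 when each cell was thinned to 2000 UMIs. The median of the 7 was 0.38, against 0.017 over all genes. Neutrophil-like cells made up 50.3% of the library, against 24.9% of the control. Class makeup alone, weighted as described below, gave log2 ratios of -0.86 for Mllt3, -0.36 for Hlf and -0.73 for Tcf15. It gave 0.27 for Erg and 0.35 for Fli1. For Mecom (-0.50) and Mycn (-0.67) the makeup value had the opposite sign to the observed one. The part of makeup in these ratios was not tested.

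Within HSC/MPP-like cells Mecom was the 1 of 6 comparable genes called in the Mll4-labelled library, among a background of 4.45% higher and 3.39% lower. Its level was 54.9 CPM (control), 72.9 CPM (Mll3-labelled) and 119 CPM (Mll4-labelled), and the last gave a log2 ratio of 1.11 (0.90 to 1.32). After thinning a Mecom UMI was found in 10.6%, 14.7% and 21.4% of these cells. Mycn was at 41.0 against 23.5 CPM, a log2 ratio of 0.81 (0.44 to 1.15), and Hlf at 166 against 199.98 CPM (-0.27, -0.43 to -0.10). The call depends on the settings: the Mecom ratio was 0.86 with trimmed-mean scaling, 0.98 in hashtag 1 cells and 0.24 at Leiden resolution 2, where Mycn turned to -0.40. Trimmed-mean scaling moved all ratios of the Mll4-labelled library within classes down by 0.21 to 0.25.

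The surface gates, which do not depend on clustering, gave Mecom at 190.2 against 106 CPM in CD150+ CD48- cells and at 188 against 121 CPM in CD150- CD48- cells. In CD150- CD48+ cells it was at 73.4 against 47.7 CPM, and in these 3 gates the intervals did not overlap. In CD150+ CD48+ cells Mecom was lower, at 28.7 against 48.4 CPM, from 13 counts and with overlapping intervals. None of these gate differences reached 2-fold. The Mll4-labelled gates held 58 to 137 cells at medians of 4362 to 6488 UMIs. The HSC/MPP-like class supplied a smaller share of each gate than in control. It made up 63.4% against 89.5% of CD150- CD48- cells and 36.5% against 68.3% of CD150- CD48+ cells. The part of this in the Mecom and Hlf levels was not tested.

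Mycn was the 1 of 6 comparable genes called in Mll4-labelled megakaryocyte-like cells (background 4.45% higher, 3.41% lower). Its level was 66.0 CPM (control), 61.9 CPM (Mll3-labelled) and 167 CPM (Mll4-labelled), and the last gave a log2 ratio of 1.34 (1.13 to 1.54). After thinning, 24.6% of these cells had a Mycn UMI against 10.0% in control. Fli1, the megakaryocyte regulator, was at 232 and 297 CPM, a ratio of 0.35 (0.21 to 0.50). Tcf15 was at 7.79 CPM from 12 counts, too few to compare by the rule with the 20.6 CPM of control (242 counts). The background has another form, and by it Tcf15 would count as lower here (log2 ratio -1.29 with 1 CPM added).

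Tcf15 was also the gene called in erythroid progenitor-like cells of the Mll4-labelled library (1 of 4 lower, background 3.86% higher, 0.862% lower). It had 119 counts in control and 0 in 320 Mll4-labelled cells, at least 3.62-fold lower against a floor of 3 counts. In granulocyte progenitor-like cells Fli1 was at 105 against 66.2 CPM (log2 ratio 0.67), and 0 of 2 comparable genes were called (background 7.03% higher, 5.8% lower).

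**Figure D4:**
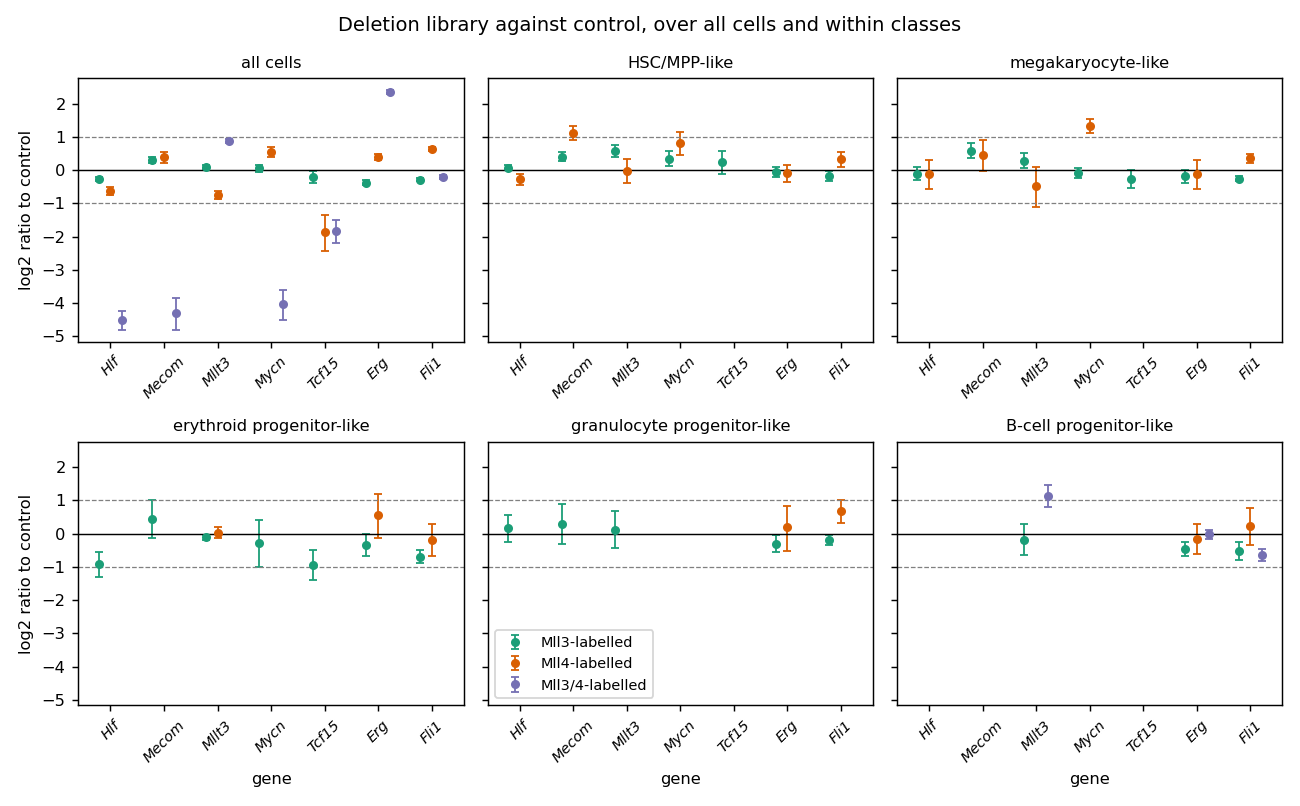
Log2 ratio of CPM to control (vertical axis) with its 95% interval for each gene, over all cells and in 5 classes, where both libraries held at least 20 counts; dashed lines mark 2-fold. Within classes, Mecom (HSC/MPP-like) and Mycn (megakaryocyte-like) of the Mll4-labelled library and Mllt3 (B-cell progenitor-like) of the Mll3/4-labelled library lie above 2-fold.

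The Mll3/4-labelled library differed most. Over all cells Hlf stood at 1.44 CPM against 33.1, 22.9-fold lower. Mecom stood at 0.502 against 9.96 CPM (19.8-fold lower), Mycn at 0.541 against 8.91 CPM (16.5-fold lower) and Tcf15 at 1.03 against 3.68 CPM (3.57-fold lower). Erg was 5.09-fold higher, at 143 against 28.1 CPM. Mllt3 stood at 56.4 against 30.9 CPM (log2 ratio 0.87) and Fli1 at 50.5 against 58.0 CPM (-0.20). Thus 4 of 7 genes were lower and 1 higher by the rule, where 11.7% of 15158 genes were lower and 12% higher. The median of the 7 log2 ratios was -1.84, against -0.012 over all genes. The hashtags differed for Tcf15, which was at 0.101 against 3.81 CPM with hashtag 1 (4 counts) and at 2.15 against 3.55 CPM with hashtag 2. The latter is a log2 ratio of -0.72, under 2-fold. Mycn was at 0.252 against 9.71 CPM with hashtag 1 (10 counts) and at 0.906 against 7.95 CPM with hashtag 2, low in both.

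The values of the 3 deletion libraries stand side by side in the plot of levels by library, and all 3 ratios share the control. The sum of the 2 ratios of the single deletions was subtracted from that of the Mll3/4-labelled library. The result was -3.63 for Hlf, -5.00 for Mecom and -4.63 for Mycn. It was 2.33 for Erg, 1.53 for Mllt3 and -0.56 (-0.64 to -0.47) for Fli1. Within B-cell progenitor-like cells alone, it was 0.59 (0.14 to 1.05) for Erg and -0.36 (-0.93 to 0.21) for Fli1. For Tcf15 it was 0.24 with an interval of -0.37 to 0.86 that includes 0, Tcf15 being lower in the Mll4-labelled library too. In the Mll3/4-labelled library 98.8% of cells were B-cell progenitor-like, against 6.86% in control. Class makeup alone, weighted as described below, gave log2 ratios of -4.25 for Mecom and 2.36 for Erg (-4.31 and 2.35 observed). It gave -2.11 for Hlf, -2.65 for Mycn and -5.57 for Tcf15 (-4.52, -4.04 and -1.84 observed). For Mllt3 and Fli1 its sign was opposite to the observed one. The Hlf value rests mostly on a single control B-cell progenitor-like cell with both hashtags. The Tcf15 value takes control B-cell progenitor-like cells at 0 CPM, where a floor of 3 counts is 0.925 CPM. The part of makeup in the all-cell subtraction was not tested.

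**Figure D5:**
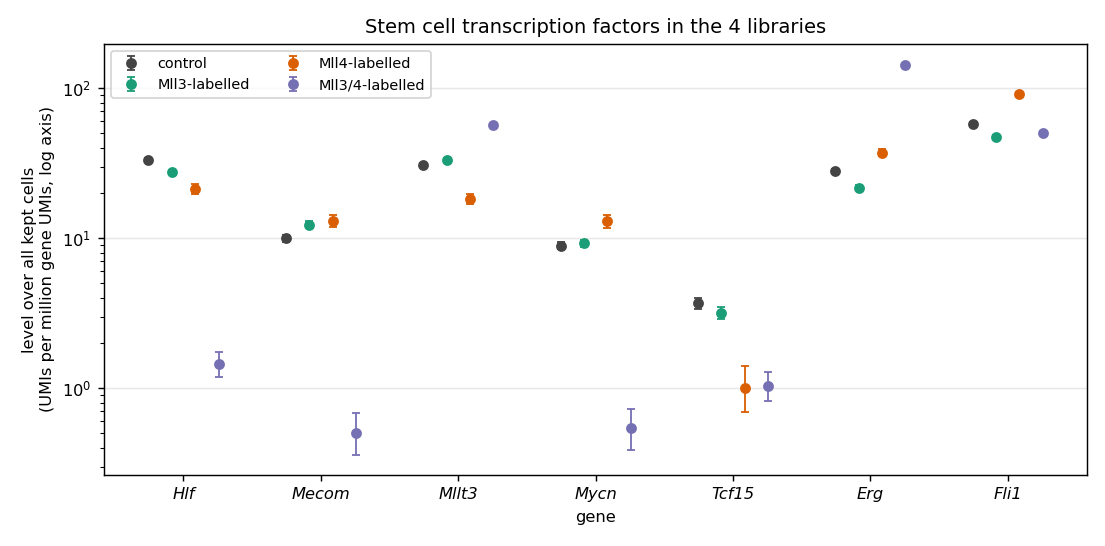
Level of each gene over all kept cells (CPM, log axis) in the 4 libraries, with 95% Poisson intervals that cover counting error only. Hlf, Mecom and Mycn are at 1.44, 0.502 and 0.541 in the Mll3/4-labelled library, and Erg is at 143.

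Most of the remaining Hlf in the Mll3/4-labelled library lay in a handful of cells. The HSC/MPP-like class held 9 cells, all with a Hlf UMI, and 78 of the 112 Hlf counts (69.6%). Their Hlf level was 452 CPM (358 to 565), against 199.98 CPM in 1161 control cells of that class, with Mecom at 98.6 CPM from 17 counts. A further 13 Hlf counts lay in 6 megakaryocyte-like cells, which also held 16 of the 42 Mycn counts (90.04 CPM) and had Fli1 at 231 CPM. Only 4 of 6831 B-cell progenitor-like cells had a Hlf UMI. By contrast 99.5% of Erg, 99.1% of Mllt3 and 96.3% of Fli1 counts lay in B-cell progenitor-like cells. With fewer than 50 cells in the stem and megakaryocyte classes, no ratio was computed there.

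The levels were also set beside those that the class makeup alone would give. Weighting the control's class levels by the class makeup of the Mll3/4-labelled library gave 145 CPM for Erg, against 143 observed, and 0.522 CPM for Mecom, against 0.502. The weighted values were 1.42 CPM for Mycn (0.541 observed), 26.1 for Mllt3 (56.4 observed) and 77.8 for Fli1 (50.5 observed). For Tcf15 the observed 1.03 CPM stood above the weighted 0.0775 CPM. That weighted value takes control B-cell progenitor-like cells at 0 CPM, where a floor of 3 counts is 0.925 CPM. For Hlf the weighted value was 7.67 CPM against 1.44, but 21 of the 23 Hlf counts of control B-cell progenitor-like cells lay in 1 cell with both hashtags. This weighting was chosen after the levels had been seen.

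Within B-cell progenitor-like cells, Mllt3 was the gene called in the Mll3/4-labelled library (1 of 4 higher, 0 lower, background 9.3% higher and 7.51% lower). Over the 4 libraries its levels were 26.2, 23.1, 22.2 (from 8 counts) and 57.2 CPM, a log2 ratio of 1.13 (0.82 to 1.45) for the last. After thinning, 5.88% of control and 10.8% of Mll3/4-labelled cells had a Mllt3 UMI. The ratio was 0.87 both after thinning and as a mean of cell shares, under 2-fold.

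Erg, the ETS factor of early B cells, stood at 147, 107, 133 and 146 CPM over the 4 libraries in these cells, a log2 ratio of -0.02 (-0.15 to 0.12) for the last and of 0.10 with trimmed-mean scaling. Fli1 stood at 77.7, 54.2, 91.5 and 49.7 CPM. Its log2 ratio was -0.52 (-0.80 to -0.24) in the Mll3-labelled and -0.64 (-0.83 to -0.45) in the Mll3/4-labelled library. No gene was called in the Mll3-labelled (0 of 3, background 0.893% higher, 1.59% lower) or the Mll4-labelled library (0 of 2, background 8.09% higher, 8.34% lower).

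The class was made of different clusters in each library, and the part of this in the ratios was not tested. Control B-cell progenitor-like cells lay in clusters 0 (316 cells), 15 (154) and 19 (19, led by Igkc), while the Mll3/4-labelled cells lay in clusters 21 to 24 (2956, 1340, 2192 and 337 cells) that were nearly all from that library. A cluster of 1 library may be that library and not a cell type. Erg differed among the 4 clusters, at 126, 93.1, 229 and 176 CPM, while Mllt3 ranged from 50.2 to 64.3 CPM and Fli1 from 46.4 to 54.4 CPM. Median depth in the class was 4141 UMIs (control) and 9936 UMIs (Mll3/4-labelled).

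Tcf15 was found in B-cell progenitor-like cells of the Mll3/4-labelled library alone among the 4, with 75 counts in 35 of 6831 cells and 0 counts in the 490, 515 and 147 cells of the others. Its level there was 0.988 CPM. The class held 97.7% of the gene UMIs of that library, against 2.11%, 2.45% and 1.10% in the others. The 0 counts of the others thus rest on far fewer UMIs. Given a floor of 3 counts in control, Tcf15 was at least 1.07-fold higher. Cells with hashtag 2 held 71 of the 75 counts and cells with hashtag 1 held 4, from 2986 and 3680 cells. A single cell held 13.

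The surface gates of the Mll3/4-labelled library held mostly B-cell progenitor-like cells. They made up 97.5% of the 200 cells in its CD117+ Sca-1+ CD150+ CD48- gate, where Hlf was at 7.85 CPM, Mecom at 2.36, Mycn at 1.57 and Erg at 161 CPM. In the 1940 CD150- CD48- cells, 99.8% B-cell progenitor-like, Hlf was at 0.224 CPM against 463 in control. These gates therefore held a different class of cell in this library than in control.

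The other genes of the heptad and 25 further stem cell regulators were set beside the 7. Over all cells of the Mll3/4-labelled library, 4 of the 5 heptad partners of Erg and Fli1 were past 2-fold lower (median log2 ratio -5.56), led by Tal1 (-6.45), Lmo2 (-5.83) and Gata2 (-5.56), beside 11.7% of all genes. Of 22 comparable regulators, 10 were higher (12% of all genes) and 5 lower there, Gfi1b at -6.77 being the furthest. Erythroid progenitor-like cells held 0.162% of the gene UMIs of that library, against 40.8% in control. Megakaryocyte-like cells held 0.229% against 7.67%. The part of cell makeup in these all-cell ratios was not tested. In Mll3/4-labelled B-cell progenitor-like cells, 2 of 3 comparable partners were lower, Lyl1 (-6.54) and Lmo2 (-5.38), while Erg was level with control. In the same cells 5 of 15 regulators were higher and 2 lower, with Egr1 at 3.23 and Nfe2 at -4.09 (background 9.3% higher, 7.51% lower). Marker genes of other lineages were also lower in this class. Mpo was at 8.76 against 189 CPM in control, Car1 at 0.0659 against 35.5 and S100a8 at 27.3 against 701 CPM. The part of RNA from other cells in the ratios of this class was not tested. In HSC/MPP-like cells of the Mll4-labelled library 0 of 5 partners and 2 of 19 regulators were past 2-fold, Egr1 (2.07) and Zbtb16 (1.43), both higher as was Mecom (background 4.45% higher, 3.39% lower). With the Mll3 label 0 of 5 partners and 0 of 24 comparable regulators passed 2-fold over all cells (background 0.199% higher, 0.467% lower). Within erythroid progenitor-like cells of that library 2 of 21 regulators were higher, Hoxb5 (1.22) and Hoxa10 (1.13), against 0.21% of all genes. Within its megakaryocyte-like cells 2 of 23 were lower, Prdm16 (-1.25) and Gata3 (-1.04), against 1.18%, and 1 of them with trimmed-mean scaling.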

How the data were processed

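Gene and antibody counts of 4 single-cell libraries (10x 3′ v3.1, per the labels' protocols) were used as deposited: UMI counts per gene and barcode, made by the authors with Cell Ranger 6.1.2 on mm10, per the submitters' processing notes. The annotation release is not given in the sources used here. Barcodes with at least 500 genes, 1000 UMIs and at most 10% mitochondrial UMIs were kept, and the highest Scrublet scores (0.8% per 1000 barcodes) were removed as doublets. Pooled cells were clustered with scanpy 1.11.5 (2000 variable genes without the 7 members, 30 components, 15 neighbours, Leiden resolution 1, seed 0) and classes were named from marker lists, rebuilt here and not the authors'. Counts summed per library and class were given as CPM of all gene UMIs, with exact Poisson intervals for levels and exact conditional binomial intervals for ratios, at 95%. These cover counting error only, and with 1 library per group no test was made. Library totals of kept gene UMIs ran from 32777830 to 153615605. Surface gates used thresholds from a 2-component Gaussian mixture in the control; CD201, CD127 and CD135 gave thresholds under 5 counts and were not used.

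The 7 genes, the other lists and the marker lists were chosen with earlier results of these data known. The text names the 7 genes always, from the other lists at most 4 per comparison by absolute log2 ratio among genes with 20 counts in both libraries, and for each member up to 3 genes with the most alike pattern. Ratio intervals were tested on simulated data. Alternatives covered doublets, the mitochondrial filter, thinning, averaging over cells, trimmed-mean scaling, a minimum of 50 counts, each hashtag, clustering with the members, resolution 2, seed 1, and antibody thresholds 1.5 times as high.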

Additional observations from a re-analysis of the deposited data

Results flagged for a closer look

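Mllt3 of the Mll3-labelled library had CPM ratios that differed between classes, with intervals on opposite sides of 0. In HSC/MPP-like cells its log2 ratio to control was 0.58 (0.40 to 0.75) and in erythroid progenitor-like cells -0.10 (-0.18 to -0.032), a difference of 0.68. In megakaryocyte-like cells it was 0.28 (0.054 to 0.51), which differs from the erythroid value by 0.38. These differences were not tested, since each group is 1 library. Each value also moved with the hashtag: with hashtag 1 alone the HSC/MPP-like ratio was 0.019 and the megakaryocyte-like ratio -0.19, and with hashtag 2 alone the erythroid ratio was 0.28. In the erythroid comparison the median log2 ratio over all genes was -0.056 and the trimmed-mean shift -0.066. Both lie inside the Mllt3 interval, so the erythroid value does not show a fall of Mllt3 beyond that of all genes.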

How the results depend on the processing

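Values here are numbers of the 7 genes past 2-fold against control, with the value as reported in brackets. Over all cells, the Mll4-labelled library had 0 lower genes (1) with a minimum of 50 counts and in each hashtag alone, and 2 as a mean of cell shares. The Mll3/4-labelled library had 0 lower (4) after thinning, 2 with a minimum of 50 counts and 1 in hashtag 1, and 2 higher (1) after thinning, in hashtag 2 and as a mean of cell shares. In HSC/MPP-like cells the Mll3-labelled library had 1 higher (0) in hashtag 2, and the Mll4-labelled library 0 higher (1) at resolution 2, with trimmed-mean scaling and in hashtag 1. In B-cell progenitor-like cells the Mll3-labelled library had 1 lower (0) without doublet removal and after thinning, and the Mll3/4-labelled library 0 higher (1) after thinning and as a mean of cell shares. In megakaryocyte-like cells the Mll4-labelled library had 3 higher (1) with seed 1 and 2 without doublet removal. In erythroid progenitor-like cells the Mll3-labelled library had 1 lower (0) with the members in the clustering, at resolution 2, in hashtag 2 and as a mean of cell shares, and 1 higher (0) with seed 1. There the Mll4-labelled library had 1 higher (0) with seed 1 and 0 lower (1) at resolution 2, after thinning and in each hashtag. In granulocyte progenitor-like cells the Mll3-labelled library had 1 higher (0) with the members in the clustering. Thinning, single hashtags and the higher minimum leave fewer counts, so fewer genes could be compared; the cause of the other changes was not tested. With seed 1 too few Mll4-labelled cells were HSC/MPP-like for a value. All 28 counts kept their value within 1.5-fold without cells positive for both hashtags, as did 6 counts without the cluster led by Igkc; both alternatives were chosen after the data had been seen. No paired analysis was possible because each group has 1 library. Depth was lowest among the compared classes in Mll4-labelled B-cell progenitor-like cells (median 2088 UMIs), where 2 of 7 genes could be compared.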

Other observations

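Cells positive for both hashtags numbered 112, 129, 249 and 142 in the control, Mll3-labelled, Mll4-labelled and Mll3/4-labelled libraries after doublet removal. In the control they held 21 of the 23 Hlf counts of B-cell progenitor-like cells, and without them Hlf was at 0.621 CPM in that class in place of 7.09. All 6 megakaryocyte-like cells of the Mll3/4-labelled library carried hashtag 2, and of its 9 HSC/MPP-like cells 3 carried hashtag 1 and 6 carried hashtag 2.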
